A study of Mus musculus with 12 samples.

Results

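Cytosolic ribosomal protein genes were examined in CD8+ T cells from mouse tumours. The genes were chosen by symbol. Rows of the count table named Rpl or Rps with a following digit, or Rplp0, Rplp1, Rplp2 or Rpsa, were taken. Rows with a -ps suffix (307 pseudogene rows), Rps6k kinase rows (10) and rows under 1200 counts over all libraries (6) were left out. This left 88 genes of 56941, holding 13627864 counts. Of these, 46 encode canonical proteins of the large (60S) subunit and 31 of the small (40S) subunit, and 10 are paralogs or near copies such as Rpl22l1, Rps27l and Rps27rt. The remaining gene, Rps19bp1, matches by symbol only and encodes a protein that binds Rps19. At the count minimum, Rps3a3 (2263 counts), Rps4l (3435) and Rpl37rt (4562) lay just inside, and Rpl32l (259), Rpl39l (148) and Rps23rg1 (12) just outside.

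The cells were viable CD45.2+ CD8+ cells sorted as asGM1- or asGM1+ from Panc02 tumours, a mouse pancreatic tumour line grown in wild type C57BL/6J mice. asGM1, or asialo-GM1, is a glycosphingolipid found on cell surfaces. Treatment was with anti-PD-1, an antibody that blocks an inhibitory receptor of T cells, or with its isotype control. The 4 groups were therefore isotype asGM1-, isotype asGM1+, anti-PD-1 asGM1- and anti-PD-1 asGM1+, each with 3 bulk RNA-seq libraries. Mouse age was not given in the labels used here, and the gate named neither CD3 nor a T cell receptor. Nothing stated whether libraries of a group came from separate mice, so p-values measure only how far these libraries spread, part of which may be technical.

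Ribosomal proteins assemble with ribosomal RNA into the 2 subunits of the ribosome, the small one reading the mRNA and the large one forming peptide bonds. Their mRNAs belong to the 5′ TOP class, which start with a run of pyrimidines and whose translation is held under mTORC1 control. T cells leaving quiescence are known to make more ribosomes, partly through MYC, while the paralogs Rpl22 and Rpl22l1 have separate roles in T cell development.

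Short windows near annotated starts were searched for the pyrimidine runs typical of these genes. RefSeq windows on GRCm38.p6 were matched for 64 of the 88 genes. The motifs searched were CTTTC, its form with 1 more T (CTTTTC) and its form with 2 more (CTTTTTC), from 50 bases before to 50 bases after each annotated start. None of these 3 motifs contains another. On the transcribed strand 40 of the 64 genes (62.5%) held a match, against 18.6% of 27025 genes with windows of the same length. Counted by window, 45 of 75 matched, against 16.4% of all windows, and on the opposite strand 13.3% matched against 15.4%. A match is a description of letters and not of a bound site. The first 5 windows below hold a match, in capitals (the one nearest the annotated start), and come from the S6 kinase substrate Rps6, from Rps27 and its near copy Rps27rt, and from Rpl36al and Rpl10, which the comparisons below turn on. In Rps6, Rps27 and Rps27rt the match begins at an offset of 2, 1 and 0 bases from the annotated start. In Rpl36al and Rpl10 it begins 31 and 43 bases after that start, and so does not lie at it. The last 3 windows are examples of the 24 genes without a match. Each runs 5′ to 3′ on the gene's strand.
Rps6: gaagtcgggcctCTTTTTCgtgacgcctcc
Rps27: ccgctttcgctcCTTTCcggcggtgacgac
Rps27rt: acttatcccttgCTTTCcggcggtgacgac
Rpl36al: ctctgttcgtccCTTTCctgttcggcgcgt
Rpl10: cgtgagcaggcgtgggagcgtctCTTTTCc
Rpl22l1: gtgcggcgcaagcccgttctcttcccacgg
Rpl7l1: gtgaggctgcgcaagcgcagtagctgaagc
Rps19bp1: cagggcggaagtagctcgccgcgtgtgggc
On GRCm38.p6 they lie at chr4:86857348-86857377 (minus strand, Rps6), chr3:90213630-90213659 (minus, Rps27), chr9:114982722-114982751 (minus, Rps27rt), chr12:69184019-69184048 (minus, Rpl36al), chrX:74270836-74270865 (plus, Rpl10), chr3:28805493-28805522 (plus, Rpl22l1), chr17:46782642-46782671 (minus, Rpl7l1) and chr15:80264292-80264321 (minus, Rps19bp1). From the motif onward the Rps27 and Rps27rt windows read the same letters. How reads matching several such copies were counted was not stated, so values of near copies, and of parents with many pseudogene rows, are uncertain. Those pseudogene rows held 1016672 counts.

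Library totals ran from 58.1 to 73.2 M counts, where M stands for mega. CD8 T cell markers (Cd8a, Cd8b1, Cd3e, Cd3d, Cd3g, Trac, Trbc1 and Trbc2) summed to 9283 to 13634 CPM, which fitted the label. CPM means counts scaled to a TMM-adjusted library total of 1 M. Among markers of other cells, B cell genes summed to 1.32 to 7.24 CPM. Plasmacytoid dendritic cell genes summed to 66.9 to 199 CPM in asGM1- libraries and 5.88 to 14.9 in asGM1+ ones, and macrophage genes to 53.7 to 91.9 and 163 to 301. Across the table, 18657 genes passed the expression filter and all 88 ribosomal protein genes were among them.

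Levels differed widely between these genes, although most of their proteins enter the ribosome in equal numbers. By mean CPM per kilobase of annotated transcript, Rpl13 (1117) was highest, followed by Rpl4 (909), both of the large subunit. Rps3a3 (3.66), Rps4l (5.78) and Rps3a2 (13.0) were lowest, and all are copies of a parent gene. Among canonical genes the lowest were Rps15a (17.2), Rpl22 (17.8) and Rps20 (20.5), for which the annotated transcripts are long (5130, 2048 and 3706 bases). Which isoform the cells made was not measured, so these per-kilobase levels are approximate. Without length, mean CPM was highest for Rpl4 (1398), Rpsa (967) and Rpl13 (871), and lowest for Rps3a3 (2.91), Rps4l (4.56) and Rpl37rt (5.89).

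The 88 genes moved together from library to library, whichever group the library belonged to. Their share of all counts was 2.34, 2.01 and 1.76% in isotype asGM1- replicates 1 to 3, and 1.65, 2.04 and 1.39% in isotype asGM1+ cells. It was 1.63, 1.86 and 1.57% in anti-PD-1 asGM1- cells and 1.52, 1.42 and 1.94% in anti-PD-1 asGM1+ cells. Isotype asGM1- replicate 1 was the highest library and isotype asGM1+ replicate 3 the lowest, and the ranges of the 4 groups overlapped. Group means were 2.04 ± 0.289, 1.70 ± 0.328, 1.69 ± 0.152 and 1.63 ± 0.272% (SD, n = 3 each), in the same order. A share is relative to other RNA, and in bulk libraries fewer cells of a type and less RNA per cell cannot be told apart.

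Both subunits followed the same course. The median deviation of the 60S genes from their 12-library means ran from -0.31 to 0.47 on the log2 scale and that of the 40S genes from -0.34 to 0.49. Over the 12 libraries, which share their depth and composition with both readings, each tracked the median of all 88 genes closely (Pearson r = 0.9997 and 0.9989, Spearman rho = 1.0 and 0.993, as descriptions). Each subunit is itself part of the 88, so values near 1 were largely fixed in advance. A correlation of the 60S median directly with the 40S median was not computed. Isotype asGM1- replicate 1 held the highest value of 73 of the 88 genes. Isotype asGM1+ replicate 3 held the lowest value of 36 and anti-PD-1 asGM1+ replicate 2 of 29. In anti-PD-1 asGM1+ cells the median deviation was -0.23, -0.32 and 0.18 in replicates 1 to 3, so libraries of 1 group differed by as much as groups did.

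**Figure D1:**
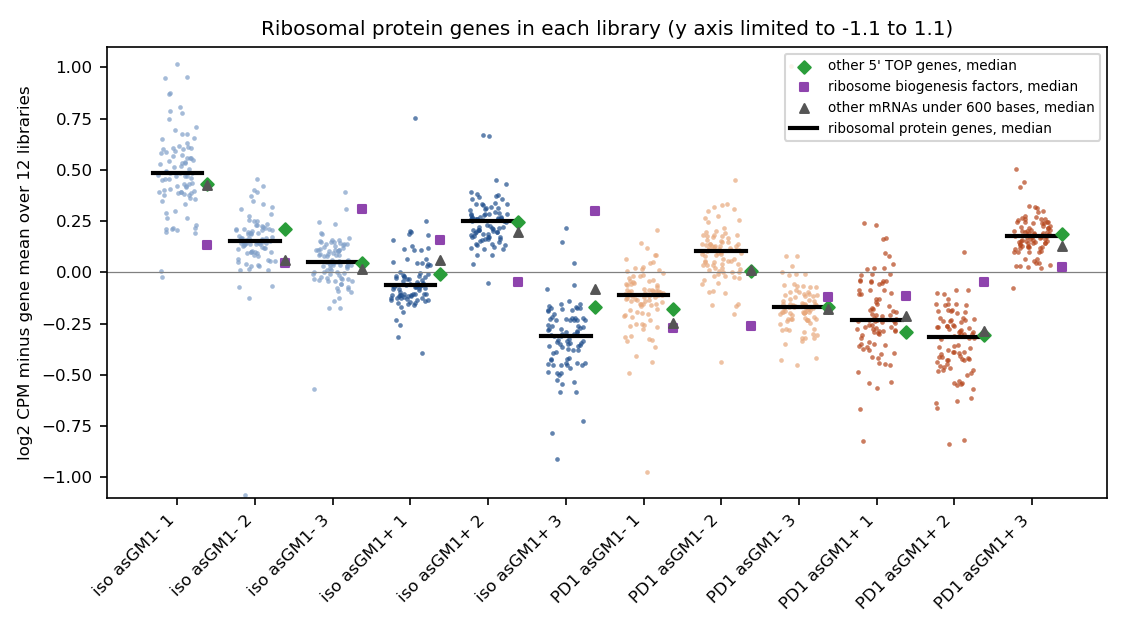
Deviation of each ribosomal protein gene (points) from its own mean over 12 libraries, in log2 CPM (y axis), by library (x axis; iso, isotype; PD1, anti-PD-1), with the median of the 88 genes as a black bar and medians of other gene sets as symbols; 5 points lie beyond the axis limits of -1.1 and 1.1. The bar stands highest in isotype asGM1- replicate 1 (0.49) and lowest in anti-PD-1 asGM1+ replicate 2 (-0.32), and the green diamonds follow it more closely than the purple squares.

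Other genes moved with them to differing degrees. Across the 12 libraries the median deviation of 11 other 5′ TOP genes (such as Tpt1, Npm1, Naca and Gas5) had a Pearson r of 0.96 with that of the ribosomal protein genes (rho 0.95), and 6 elongation factors an r of 0.95 (rho 0.96). Mitochondrial ribosomal proteins, which serve the separate ribosome of that organelle, had an r of 0.69 (rho 0.67). Ribosome biogenesis factors, which build the particle in the nucleolus, had an r of 0.08 (rho 0.10), and cell cycle genes an r of -0.13 (rho -0.20). These are descriptions without a test, over libraries that share depth and composition.

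Transcript length also moved with them. Ribosomal protein mRNAs are short, with a median annotated length of 759 bases. The median deviation of 139 other mRNAs under 600 bases ran from -0.29 to 0.43 and had an r of 0.91 with that of the ribosomal protein genes (rho 0.89). For 749 other mRNAs of 600 to under 1200 bases r was 0.82 (rho 0.80), and for 3732 mRNAs of 3000 bases or more it was -0.82 (rho -0.80). The share of mitochondrially encoded transcripts, 0.309 to 0.782% of counts, had an r of 0.85 (rho 0.82). The part of transcript length or library preparation in the shared movement was not tested.

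A few genes did not follow the rest. The Pearson correlation of a gene's log2 CPM with the mean of the other 87 had a median of 0.93 and exceeded 0.8 for 77 genes, as a description over 12 libraries. It was highest for Rpl23 and Rps24 (both 0.99). Rpl7l1, a paralog of Rpl7 known from large-subunit assembly, had an r of -0.17, and Rps4l, an autosomal relative of the X-linked Rps4x, -0.02. Rpl4 (0.47), Rpl22l1 (0.52) and Rps19bp1 (0.55) were next, Rpl4 being the only canonical gene of the 5. Motif matches did not follow this order throughout, since Rpl4 had one and Rpl23 had none.

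**Figure D2:**
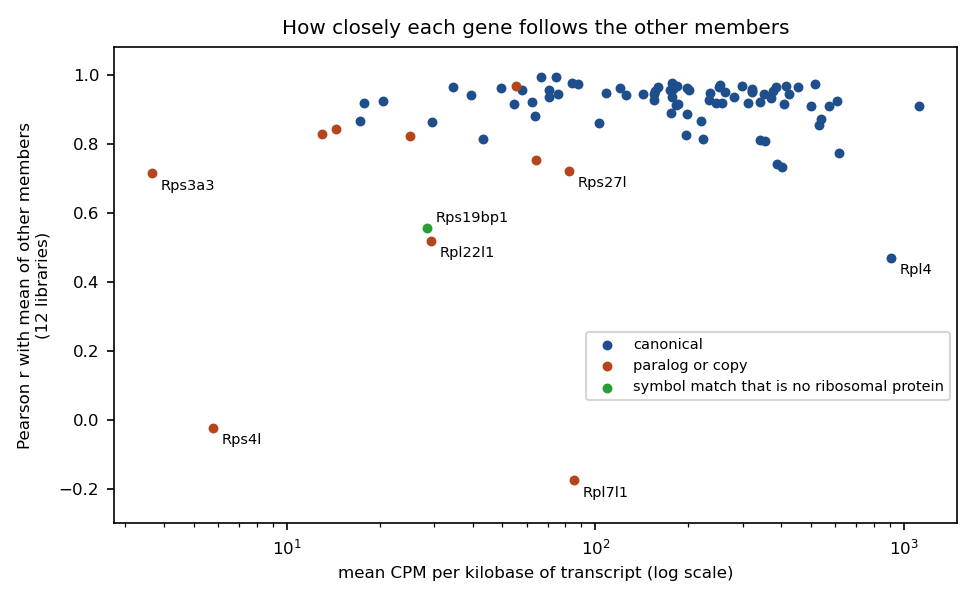
Pearson r of each gene with the mean of the other ribosomal protein genes over 12 libraries (y axis) against its mean CPM per kilobase on a log scale (x axis), one point per gene, coloured by class. Most points lie above 0.8, and Rpl7l1 (-0.17) and Rps4l (-0.02) lie lowest.

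Rps4l had the widest spread. Its CPM was 5.75, 1.34 and 1.91 in isotype asGM1- cells, 4.78, 0.42 and 1.65 in isotype asGM1+ cells, 1.45, 6.62 and 5.69 in anti-PD-1 asGM1- cells and 0.69, 13.0 and 11.4 in anti-PD-1 asGM1+ cells. Values within a group differed by as much as between groups, and its SD of log2 CPM was 1.59. The share of the genes' variance on a first principal component was 61.1% with it and 83.0% without it. Rps12 (SD 0.53) and Rps27rt (0.48) followed. Rpl13 (0.13), Rpl4 (0.14) and Rpl7l1 (0.15) were steadiest, against a median of 0.27. Rpl4, which lines the peptide exit tunnel, ranged only from 1208 to 1573 CPM.

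Paralog pairs offered a closer view. Rpl22 was at 48.2, 45.3 and 37.1 CPM in isotype asGM1- cells, 33.1, 44.2 and 23.7 in isotype asGM1+ cells, 37.2, 43.8 and 30.4 in anti-PD-1 asGM1- cells and 29.4, 24.5 and 40.8 in anti-PD-1 asGM1+ cells. Its paralog Rpl22l1 was at 19.7, 17.8 and 17.1 CPM, then 18.3, 18.4 and 12.6, then 15.4, 11.9 and 14.03, then 19.0, 13.6 and 17.2 in the same order. Groups overlapped for Rpl22 in each comparison of 2 groups, whereas the anti-PD-1 asGM1- libraries of Rpl22l1 all lay below the isotype asGM1- ones. The same held for 34.1% of the 88 genes and 15.8% of all genes. Rpl22l1 was not called in that comparison by the edgeR test described below. Per kilobase, Rpl22l1 averaged 29.4 CPM and Rpl22 17.8.

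Rps27 stood at 176, 131 and 116 CPM in isotype asGM1- cells, 99.8, 127 and 85.0 in isotype asGM1+ cells, 138, 163 and 126 in anti-PD-1 asGM1- cells and 98.0, 75.3 and 138 in anti-PD-1 asGM1+ cells. Means were thus lower in asGM1+ cells under both treatments (104 ± 21.1 against 141 ± 31.0, and 104 ± 31.6 against 142 ± 18.9, n = 3), with overlapping libraries. Its stress-linked paralog Rps27l, a known p53 target, did not share that order: means were 44.9 ± 10.5, 43.0 ± 0.959, 35.5 ± 4.58 and 41.1 ± 8.70 CPM in the 4 groups. Rpl36al averaged 64.1 CPM per kilobase against 62.4 for its parent Rpl36a, and Rpl7l1 85.4 against 353 for Rpl7.

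Between asGM1+ and asGM1- cells no ribosomal protein gene passed the test. Under isotype, 86 of 88 log2 differences (asGM1+ minus asGM1-) lay below 0, with a median of -0.27 against -0.00084 over all genes. edgeR's quasi-likelihood test called 0 of 88 at a Benjamini-Hochberg adjusted p under 0.05, and 1.31% of all genes tested in either direction. At an unadjusted p under 0.05 there were 5 genes (5.68%), below the 12.5% of all genes. DESeq2 and limma voom each called 0 of 88, against 4.28 and 1.53% of all genes. The median was -0.44 without isotype asGM1+ replicate 2, -0.13 without isotype asGM1+ replicate 3 and -0.14 without isotype asGM1- replicate 1. The genes shift together between libraries, so 86 of 88 is not 86 independent observations.

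The smallest p under isotype belonged to Rps28, a small-subunit protein near the mRNA exit. It was at 35.3, 23.3 and 23.0 CPM in asGM1- cells and 18.5, 21.9 and 14.6 in asGM1+ cells. These groups did not overlap, and the log2 difference was -0.57 ± 0.22 (SE; adjusted p = 0.293, edgeR). Rps29 and Rpl17 were the only others without overlap, so that 3 of 88 genes (3.41%) lay wholly lower, while 8.4% of all genes did. Rps21 (-0.62 ± 0.26), Rpl30 (-0.43 ± 0.18) and Rps20 (-0.42 ± 0.18) overlapped, with adjusted p of 0.341, 0.336 and 0.346.

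Under anti-PD-1 the ribosomal protein genes of the 2 populations lay closer, with a median log2 difference of -0.04 and 58 of 88 below 0. edgeR called 0 of 88, and 1.58% of all genes. At an unadjusted p under 0.05 there were 0, against 11.3% of all genes, and DESeq2 and limma voom called 0, against 4.57 and 1.46%. The median was 0.13 without both anti-PD-1 libraries of replicate 2. It was 0.03 to 0.05 without anti-PD-1 asGM1- replicate 2 or without anti-PD-1 asGM1+ replicate 1 or 2, and -0.21 without anti-PD-1 asGM1+ replicate 3. Rps27 had the smallest p (-0.46 ± 0.23, adjusted p = 0.497). Averaged over both treatments the median was -0.14, with 81 of 88 below 0. There edgeR, DESeq2 and limma voom called 0, against 3.59, 7.61 and 3.95% of all genes. Only Rps27 had an unadjusted p under 0.05 (-0.45 ± 0.16, adjusted p = 0.177), against 16.2% of all genes. Without anti-PD-1 asGM1+ replicate 3, 1 gene passed.

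Population differences of other genes give the scale. Of 16 naive and quiescent T cell markers 11 fell in asGM1+ cells under isotype and 4 under anti-PD-1. Of 11 macrophage markers 9 and 7 were higher in asGM1+ cells, and of 8 plasmacytoid dendritic cell markers 8 and 7 were lower. Siglech, a defining gene of the latter cells, was at 25.1 to 71.3 CPM in asGM1- libraries and at 0 to 0.49 in asGM1+ ones. Their part in the ribosomal protein values was not tested.

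Anti-PD-1 was compared with isotype in each population. In asGM1- cells 83 of 88 log2 differences (anti-PD-1 minus isotype) lay below 0, with a median of -0.31 against -0.01 over all genes. edgeR called 0 of 88, while it called 8.57% of all genes, 4.45% of them as lower. At an unadjusted p under 0.05 there were 23 genes (26.1%), near the 22.9% of all genes. DESeq2 called 4 lower (4.55%), against 7.95% of all genes, and limma voom 0, against 4.66%. For 30 of the 88 (34.1%) every anti-PD-1 library lay below every isotype library, against 15.8% of all genes. These 30 share the same 6 libraries and move together. The median without 1 library ran from -0.41 to -0.18, the latter without isotype asGM1- replicate 1.

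Among these, Rpl36al, a large-subunit paralog of Rpl36a, had the smallest adjusted p. Its CPM was 68.6, 48.4 and 53.4 under isotype and 37.2, 42.8 and 39.1 under anti-PD-1 in asGM1- cells, with no overlap. The log2 difference was -0.52 ± 0.15 with an adjusted p of 0.0506. Rpl10, which joins the large subunit late in its maturation, differed by -0.58 ± 0.17 (adjusted p = 0.0554). Of 23 settings, the main fit included, Rpl36al passed in 6 and Rpl10 in 8, so neither was stable against the threshold. Rpl36a (-0.52 ± 0.19) and Rps20 (-0.46 ± 0.18) had adjusted p of 0.124 and 0.135.

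In asGM1+ cells the median difference was -0.08, with 68 of 88 below 0. edgeR called 0 of 88, against 6.73% of all genes, and DESeq2 and limma voom 0, against 12.1 and 6.62%. The 1 gene with an unadjusted p under 0.05, against 21% of all genes, was Rps19bp1, at 27.2, 28.5 and 26.2 CPM under isotype and 17.3, 22.3 and 24.1 under anti-PD-1 (-0.36 ± 0.14, adjusted p = 0.149). It alone lay wholly lower (1.14%), against 12.2% of all genes. The median turned positive without isotype asGM1+ replicate 2 (0.10), without anti-PD-1 asGM1+ replicate 2 (0.02) and without both anti-PD-1 libraries of replicate 2 (0.02). Rps4l had the largest difference, 1.88 ± 1.03, with an adjusted p of 0.333.

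Averaged over both populations, 3 genes fell under anti-PD-1 and 0 rose. They were Rpl10, Rpl36al and Rps19bp1, of which only Rpl10 is a canonical ribosomal protein gene. The 3 were 3.41% of the 88, against 9.02% of all genes called lower and 9.12% called higher (18.1% in either direction). The median difference was -0.20, with 84 of 88 below 0, against -0.02 over all genes. Of the 88, 14 had an unadjusted p under 0.05 (31.4% of all genes did).

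Rpl10 (ENSMUSG00000008682) was at 241, 230.4 and 188 CPM in isotype asGM1- cells and 178, 235 and 144 in isotype asGM1+ cells. Under anti-PD-1 it was at 142, 160.4 and 138 in asGM1- cells and 138, 141 and 176 in asGM1+ cells. The treatments were apart in asGM1- cells and overlapped in asGM1+ cells. Group means were 220 ± 28.3 and 186 ± 46.2 under isotype and 147 ± 11.97 and 152 ± 21.1 under anti-PD-1 (SD, n = 3). The log2 difference was -0.44 ± 0.12, a 1.35-fold lower level, with an adjusted p of 0.026 (edgeR). Over 22 settings, the main fit included, the adjusted p ran from 0.00285 to 0.0788, and 15 made the call.

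Rps19bp1 (ENSMUSG00000051518), also called AROS for its activation of the deacetylase SIRT1, was at 28.4, 24.4 and 25.7 CPM in isotype asGM1- cells, where anti-PD-1 gave 18.8, 22.8 and 20.9. With the asGM1+ values above, all 6 anti-PD-1 libraries lay below all 6 isotype libraries, as did 3.32% of all genes. The log2 difference was -0.34 ± 0.10 (adjusted p = 0.028). Rpl36al (ENSMUSG00000049751) was at 54.8, 55.2 and 45.8 CPM in isotype asGM1+ cells and at 46.3, 38.9 and 51.9 in anti-PD-1 asGM1+ cells, which overlap. Its averaged difference was -0.35 ± 0.10 (adjusted p = 0.0361). Rpl5, part of the 5S particle that can hold Mdm2, differed by -0.41 ± 0.15 (adjusted p = 0.0855).

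The 3 calls were not stable against the tool or the libraries used. DESeq2 called 7 genes lower (7.95%), against 12.2% of all genes, and limma voom 3 (3.41%), against 8.87%. Without isotype asGM1- replicate 1, anti-PD-1 asGM1- replicate 1 or 3, or anti-PD-1 asGM1+ replicate 1 or 2, 0 genes passed. Without isotype asGM1+ replicate 1 or 2, 1 passed. Without anti-PD-1 asGM1+ replicate 3, whose ribosomal protein share was high, 15 passed, and without both anti-PD-1 libraries of replicate 2, 0 did.

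Markers of other cells also differed between treatments. Summed CD4 and regulatory T cell markers were at 456 to 812 CPM in the isotype libraries and 1051 to 1416 in the anti-PD-1 ones. Of these 7 genes only Ctla4, which activated CD8 T cells also express, was called (higher, 1.42 ± 0.19 on the log2 scale), and Cd4 itself was at 1.20 to 15.1 CPM. NK cell markers summed to 273 to 371 CPM in isotype asGM1+ libraries, 109 to 121 in anti-PD-1 asGM1+ ones, and 120 to 210 and 118 to 159 in the asGM1- ones. Averaged over populations 2 of 5 tested NK genes fell (Fcer1g and Klrb1c) and 1 rose (Klri2), while the defining gene Ncr1 was at 0 to 1.85 CPM. All 3 tested neutrophil markers fell, from a sum of 3.25 to 7.29 CPM to 0.26 to 2.49. Of 16 naive and quiescent T cell markers 8 rose and 3 fell, of 11 macrophage markers 1 rose and 2 fell, and 2 of 8 epithelial or stromal, 2 of 8 CD8 T cell and 1 of 8 plasmacytoid dendritic cell markers fell. The part of these in the ribosomal protein values was not tested.

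**Figure D3:**
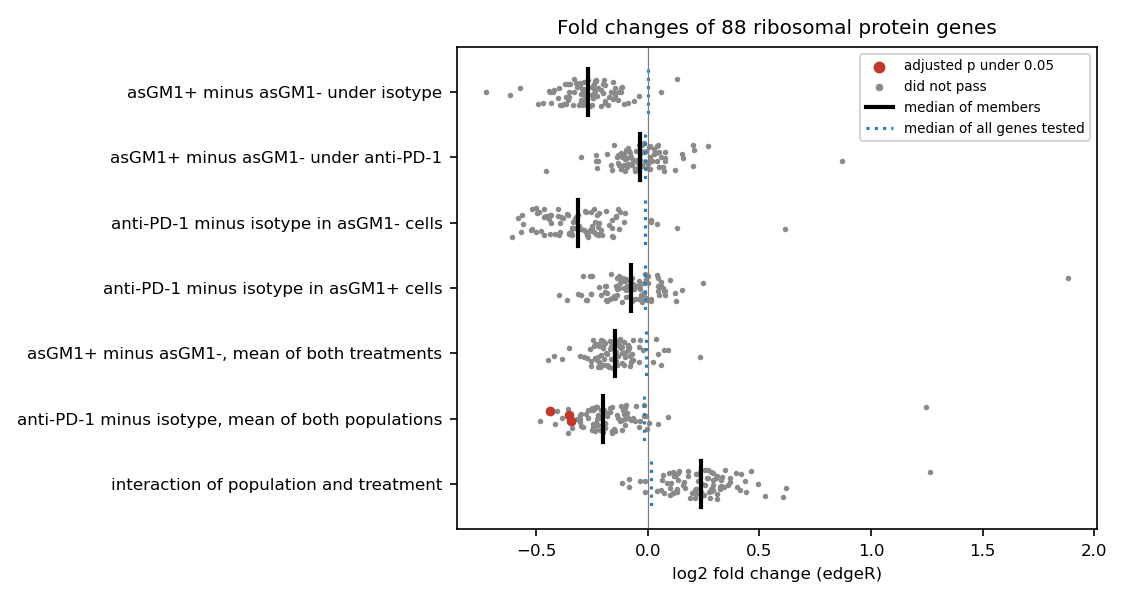
Log2 fold change by edgeR (x axis) of the 88 genes in 7 comparisons (rows), one point per gene, red where the adjusted p was under 0.05, with the median of the 88 genes (black) and of all genes tested (blue dots). Only anti-PD-1 minus isotype averaged over both populations has red points, 3 in number, while most grey points lie left of 0 in the comparisons above the interaction.

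**Figure D4:**
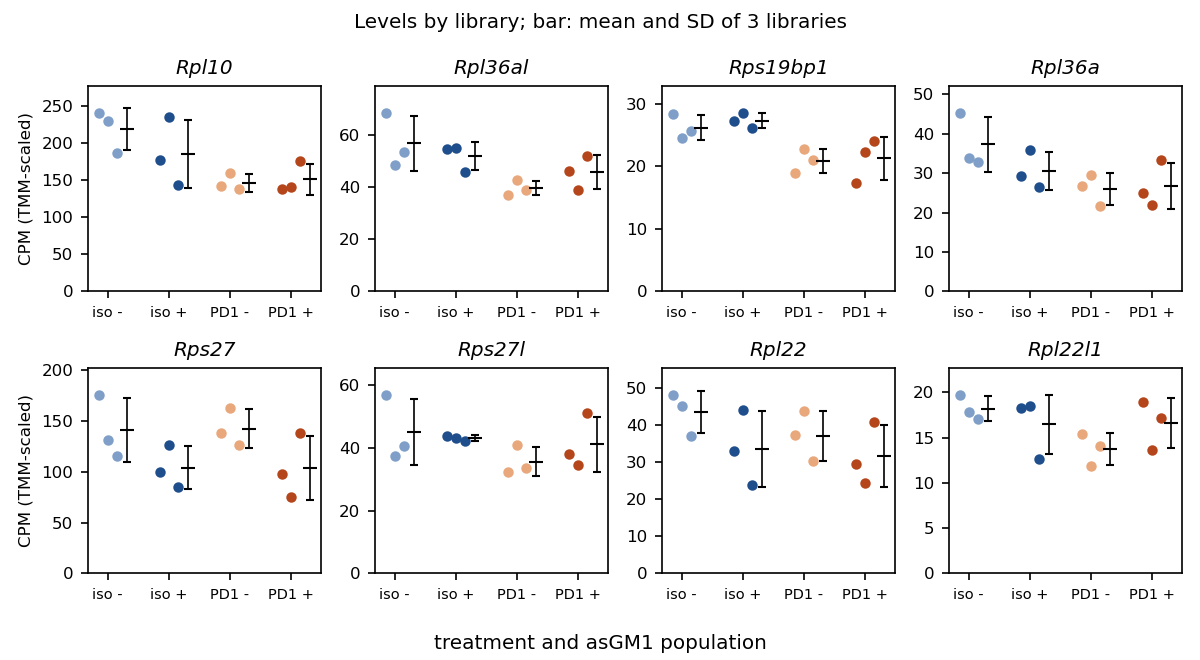
CPM (y axis, from 0) of 8 genes in each library (points), by treatment and asGM1 population (x axis; iso, isotype; PD1, anti-PD-1; minus and plus for asGM1), with the mean and SD of 3 libraries beside the points. All Rps19bp1 points under anti-PD-1 lie below those under isotype, and Rps27 means are lower in asGM1+ cells under both treatments.

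Whether the treatment difference depended on the population was tested as an interaction. The median interaction of the 88 genes was 0.24 on the log2 scale, with 82 above 0, against 0.01 over all genes. edgeR called 0 of 88 and 0% of all genes, and DESeq2 and limma voom called 0 of 88, against 0.729 and 0%. None of the 88 had an unadjusted p under 0.05, against 7.12% of all genes. Rps28 had the smallest p (0.62 ± 0.31, adjusted p = 0.747). The median was 0.06 without anti-PD-1 asGM1+ replicate 3, 0.09 without isotype asGM1+ replicate 3, 0.10 without isotype asGM1- replicate 1 and 0.40 without isotype asGM1+ replicate 2. A treatment difference particular to asGM1- cells was thus not established for these genes.

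In asGM1- cells and in the averaged comparison, other parts of the translation machinery passed the test more often under anti-PD-1. Of 42 ribosome biogenesis factors 22 fell in the averaged comparison and 0 rose, 15 fell in asGM1- cells and 2 in asGM1+ cells. For this and the lists below, 9.02% of all genes fell in the averaged comparison and 4.45% in asGM1- cells. In asGM1+ cells 6.73% of all genes were called in either direction. Examples were the rRNA methyltransferase Fbl (-0.49 ± 0.06, adjusted p = 0.000181), the snoRNP protein Gar1 (-0.61 ± 0.08, adjusted p = 0.000582) and Rrp1b (-0.42 ± 0.07, adjusted p = 0.00271). Without both anti-PD-1 libraries of replicate 2 the averaged count was 12. In asGM1- cells DESeq2 called 24 lower, and the count was 5 to 8 without isotype asGM1- replicate 1 or 3 or without any 1 of the anti-PD-1 asGM1- libraries. Neither population comparison called any of the 42.

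Of 78 mitochondrial ribosomal protein genes 27 fell in the averaged comparison, among them Mrps18b (-0.42 ± 0.07) and Mrpl23 (-0.56 ± 0.10). In asGM1- cells 9 fell and in asGM1+ cells 1. The asGM1- count was 26 with DESeq2, 15 with library totals, 4 without isotype asGM1- replicate 1 and 3 without anti-PD-1 asGM1- replicate 1 or 3. The averaged count was 13 to 17 without isotype asGM1- replicate 1, isotype asGM1+ replicate 1 or 2, anti-PD-1 asGM1- replicate 1 or 3, or anti-PD-1 asGM1+ replicate 1 or 2, and 11 without both anti-PD-1 libraries of replicate 2. Set beside the 3 of 88 cytosolic genes, the medians were less far apart: -0.22 for mitochondrial and -0.20 for cytosolic ribosomal proteins, and -0.34 for biogenesis factors. The difference between these gene sets was not tested.

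Among 6 elongation factors, Eif5a (-0.54 ± 0.08, adjusted p = 0.00103) and Eef1d (-0.38 ± 0.08, adjusted p = 0.00709) fell, while Eef1b2 differed by -0.24 ± 0.15 (adjusted p = 0.298). Among 28 initiation factors 5 fell, including Eif2s1, Eif4a1 and Eif6, but 0 to 3 did without isotype replicate 1 of either population, any 1 anti-PD-1 asGM1- library or anti-PD-1 asGM1+ replicate 1 or 2. Among 11 other 5′ TOP genes 2 fell, the nucleolar chaperone Npm1 (-0.44 ± 0.09) and Hnrnpa1 (-0.43 ± 0.11), and 4 did without anti-PD-1 asGM1+ replicate 3. Of 7 chaperones dedicated to single ribosomal proteins 1 fell, Grwd1, the partner of Rpl3 (-0.66 ± 0.15, adjusted p = 0.0097).

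**Figure D5:**
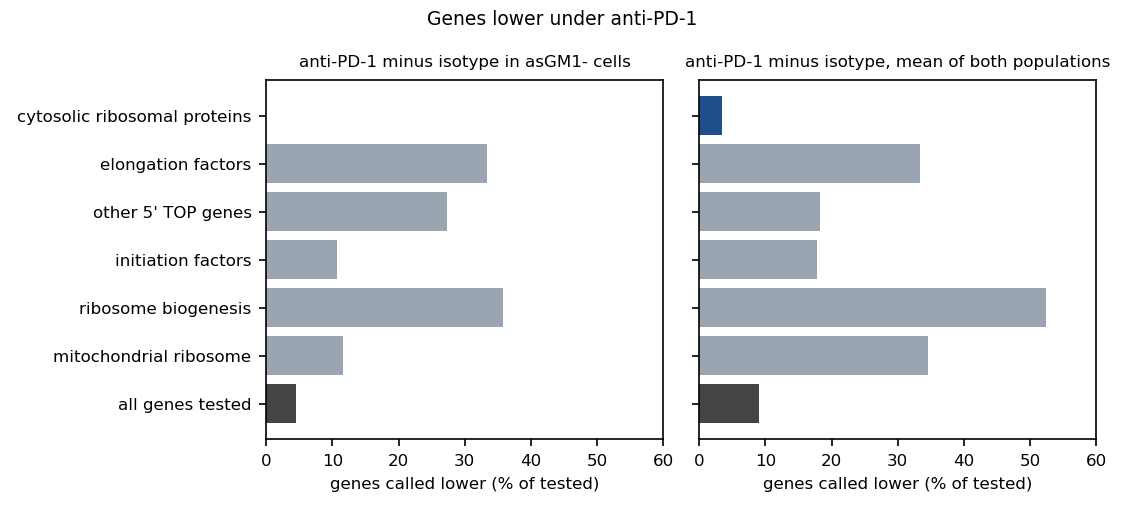
Share of the tested genes of each set called lower under anti-PD-1 (x axis, percent, from 0) in asGM1- cells (left) and averaged over both populations (right), by gene set (y axis). Ribosome biogenesis factors reach 35.7 and 52.4%, cytosolic ribosomal proteins 0 and 3.41%, and all genes tested 4.45 and 9.02%.

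Upstream of ribosome production, 3 of 19 genes of mTORC1 and MYC control rose and 4 fell in the averaged comparison. The median of the 19 was -0.03, against -0.02 over all genes, of which 9.12% were called higher and 9.02% lower. Not every called gene of this list is named here. Tsc1, an inhibitor of mTORC1, rose by 0.57 ± 0.09 (adjusted p = 0.00129) and Maf1, a repressor of RNA polymerase III, by 0.38 ± 0.08 (adjusted p = 0.00626). Myc fell by 0.83 ± 0.17 on the log2 scale (adjusted p = 0.00539). Pdcd4, which inhibits the helicase Eif4a1, was lower in asGM1+ than asGM1- cells (-0.61 ± 0.10 averaged, adjusted p = 0.0053). Of 15 cell cycle genes, whose part in these values was not tested, 9 fell under anti-PD-1 in asGM1- cells (median -0.71). In asGM1+ cells 0 of 15 passed (median -0.12), and the interaction called 0 of 15 (median 0.58). Heat shock genes fell in 5 of 7 in the averaged comparison.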

How the data were processed

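Per the labels' protocols, RNA of the 12 libraries was taken with TRIzol, and TruSeq mRNA and SMARTer low-input kits were used. The submitters' processing notes name HISAT2, StringTie and build mm39. Versions, annotation, strand use and the treatment of multiply matching reads are not given in the sources used here. Raw counts, as whole numbers with 1 column per library, were deposited in a single table. Whether these were tallied or derived from coverage was not stated. Totals were 58.1 to 73.2 M counts.

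Counts were tested with edgeR 4.0.16 (limma 3.58.1, R 4.3.3) by the quasi-likelihood F test with all 12 libraries fitted at once and a coefficient for each group. The default expression filter left 18657 genes, scaling was TMM (factors 0.970 to 1.04), and Benjamini-Hochberg adjustment covered all of them at 0.05. The fit had 8 residual degrees of freedom. SE is the log2 fold change over the root of F. CPM are TMM-scaled. Deviations of listed genes used a pseudocount of 0.5 CPM. Lengths (median over principal transcripts, GENCODE M21) and promoter windows (RefSeq) are on GRCm38, which differs from mm39, so no coordinates of the files are given. The fit was tested on simulated counts for asGM1+ minus asGM1- under isotype (18657 genes). It recovered 93% of 2-fold and 100% of 4-fold changes (log2 of 1 and 2), with 2.5% false calls. Differences of the ribosomal protein genes in that comparison, -0.72 to 0.13 on the log2 scale, were smaller than any change simulated. How the simulated spread compares with that of the data (common biological coefficient of variation 0.336) is not given here. The recovery therefore does not measure how often differences of the size seen would be missed.

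Same-numbered asGM1- and asGM1+ libraries within a treatment deviated together in all 6 pairs (correlation 0.209 to 0.704). The labels do not state a pairing, so the main fit did not pair them. All p-values, SE and calls of the population comparisons given above are therefore unpaired. A block over these pairs was run as an alternative. Over the 88 genes alone the anti-PD-1 pairs 1 to 3 correlated at 0.499, -0.063 and -0.403. asGM1- replicate 2 with asGM1+ replicate 3 reached 0.584 (0.264 over all genes). Across treatments same-numbered libraries did not deviate together (-0.43 to 0.23).

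The members and gene lists were chosen with earlier results of these data known. Named genes were a preset set of paralogs and well-known members, the 5 smallest p per comparison, the extremes of level, spread and count minimum, and up to 3 genes per other list with the smallest p. Some genes that this rule takes are not reported here. Alternatives were other scalings, no filter, DESeq2 1.42.0, limma voom, fewer libraries, replicate blocks and each library left out.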

Additional observations from a re-analysis of the deposited data

How the results depend on the processing

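Across scalings, filters, tools, replicate blocks and left-out libraries no called result reversed. The median differences of the 88 genes moved by less than the pooled within-group SD (0.235), but that limit is larger than several of the medians themselves. With libraries left out, the population median under anti-PD-1 ran from -0.21 to 0.13 and the treatment median in asGM1+ cells from -0.24 to 0.10. The interaction median ran from 0.06 to 0.41. Calls moved as well. Genes called lower under anti-PD-1 in asGM1- cells numbered 0, but 2 with size-factor (RLE) scaling, library totals, TMM without the members or only the libraries compared, and 4 with DESeq2. Without single libraries they numbered 0 to 2. In the averaged treatment comparison the count of 3 became 7 with DESeq2, 0 without both anti-PD-1 libraries of replicate 2, and 0 to 15 without single libraries. In the averaged population comparison it was 0 to 1. The cause of these moves was not tested. The replicate block over same-numbered pairs left the count at 0 in every population comparison (median -0.28 under isotype against -0.27), and so changed no call. A block on the number across treatments, which the libraries did not share, gave 2 calls in place of 3. The counts of the other translation lists were added as results after the data were seen. Values after ± are the SE of the fit or the SD over libraries, and so measure spread between libraries. The gene with the fewest counts, Rps3a3, had 2263 in all.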

Other observations

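Of the rows under the count minimum, Rpl10l and Rps12l1 were at 0 in all libraries and Rpl3l had 5 counts in all. Pseudogene rows with a -ps symbol held 0.104 to 0.187% of counts, highest in isotype asGM1- replicate 1 and lowest in isotype asGM1+ replicate 3, the same libraries as for the parent genes. Across the 12 libraries that share had a Pearson r of 0.98 with the median deviation of the 88 genes (Spearman rho 0.99, a description).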
